A study of Mus musculus with 16 samples.

Results

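The mitochondrial ribosomal protein genes are the nuclear genes whose products build the ribosome inside mitochondria. They were chosen by symbol, as rows that start with Mrpl or Mrps followed by a digit and hold no hyphen, with a mean of at least 1 CPM, a read count scaled to the size of its library, over the libraries used here. This gave 77 genes of the 14004 that passed the same minimum. 1 further row of such a symbol, Mrpl53, stayed under it. The symbols gave 48 Mrpl and 29 Mrps genes. By the place of the protein in the mammalian mitoribosome, 50 genes belong to the large subunit, 26 to the small subunit and 1, Mrps36, to neither, since its product is now known as a part of the oxoglutarate dehydrogenase complex. Mrps30 and Mrps18a, named after the small subunit, were counted with the large subunit, where their proteins sit.

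The mitoribosome translates the few proteins that are encoded in mitochondrial DNA, which are core parts of the respiratory chain. Its rRNAs are transcribed in the mitochondrion, whereas all of its proteins are made in the cytosol and imported. The large subunit forms peptide bonds and holds the exit tunnel, which faces the inner membrane. The small subunit decodes the mRNA. Many of these proteins have a bacterial homologue and others exist only in mitochondria.

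C17.2α cells are a mouse neural line from cerebellum that was engineered to overexpress the thyroid hormone receptor TRα1. All libraries share this transgene and a medium whose serum was stripped of thyroid hormone with charcoal, and T3 is not among the treatments in their labels. Cells were exposed for 24 h to the solvent DMSO in 2 libraries, or to a strobilurin at 1 concentration per library: azoxystrobin at 1000 nM, or picoxystrobin, pyraclostrobin or trifloxystrobin at 30, 100, 300 and 1000 nM. Strobilurins are fungicides that block complex III of the respiratory chain. Azoxystrobin and picoxystrobin carry a methoxyacrylate group, trifloxystrobin a methoxyiminoacetate and pyraclostrobin a methoxycarbamate.

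The counts of azoxystrobin at 100 nM were identical, gene for gene, to those of the second DMSO library. They were used once, as DMSO, which left 15 libraries with 12292390 to 18188099 counts each, and whether they belong to DMSO or to azoxystrobin is not known. Each comparison with DMSO is therefore also given without this library. Picoxystrobin at 1000 nM stood apart from the other picoxystrobin libraries and was fitted on its own. Libraries of 1 compound at different concentrations stood in for replicates, and nothing says that the libraries came from separate cultures, so p-values measure only the spread between these libraries. The progenitor markers Nes, Vim, Sox2 and Msi1 were expressed in every library, with medians of 164, 2864, 38.7 and 6.05 CPM. The neuron marker Rbfox3, the astrocyte marker Aqp4 and the leukocyte marker Ptprc were at 0 in all of these libraries. Other markers of these types were detected. Of the neuron markers, Tubb3 had 11.5 to 31.4 CPM and Snap25 0.07 to 0.55 CPM. The astrocyte marker Gfap had 0.54 to 1.37 CPM and Aldh1l1 at most 0.19 CPM. The microglia markers Aif1 and Cx3cr1 reached at most 0.12 and 0.19 CPM. In such bulk samples, fewer cells of a type and less RNA per cell cannot be told apart.

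The 77 genes took 0.341% to 0.404% of all counts. The lowest share was at picoxystrobin 300 nM, and the highest shares, 0.402% and 0.404%, were at pyraclostrobin 300 and 1000 nM, against 0.362% and 0.356% in the DMSO libraries. Per kb of the longest transcript, the mean level ranged from 0.42 to 155 CPM with a median of 18.7, which was 19.5 for the large and 14.8 for the small subunit. The highest levels per kb were those of Mrps6 (155), Mrpl54 (152) and Mrpl14 (144). The lowest were those of Mrpl23 (0.42), Mrpl48 (2.0) and Mrps25 (2.49). Mrps6 shares its strand with the overlapping Slc5a3 gene, so its reads cannot be fully separated.

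In 3 cases most reads fell on a row with a pseudogene name. The row Mrpl23-ps1 held 46.5 to 65.4 CPM per library, whereas Mrpl23 itself held 1.07 to 2.79 CPM. The row Mrpl48-ps held 14.3 to 18.8 CPM against 7.09 to 10.4 CPM for Mrpl48. The rows of Mrps36 with a hyphen held 13.7 to 23.2 CPM against 1.26 to 3.48 CPM for Mrps36. The values of these 3 genes are therefore uncertain.

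The medians of both subunits lay close to each other in every exposure, and both were higher than in DMSO at all 4 concentrations of pyraclostrobin. Change was measured per library as log2 CPM minus the mean of the DMSO libraries. At 30, 100, 300 and 1000 nM of pyraclostrobin the median change of the large subunit was 0.13, 0.13, 0.20 and 0.16. That of the small subunit was 0.15, 0.10, 0.16 and 0.16 at the same concentrations, while the median of all genes lay between 0.00 and 0.01. The mean over the 4 libraries was 0.15 ± 0.03 (SD, n = 4) for the large and 0.14 ± 0.03 (SD, n = 4) for the small subunit.

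The interquartile range of the large subunit widened with the concentration, from between -0.01 and 0.23 at 30 nM of pyraclostrobin to between -0.07 and 0.41 at 1000 nM. That of all genes widened as well, from between -0.16 and 0.16 to between -0.31 and 0.30. At azoxystrobin 1000 nM, a single library, the medians were 0.11 for the large and 0.09 for the small subunit, with 40 of 50 and 22 of 26 genes above the DMSO mean. Trifloxystrobin left the medians near zero, with means of 0.02 ± 0.03 for the large and 0.03 ± 0.02 for the small subunit (SD, n = 4 each). Picoxystrobin at 30 to 300 nM gave 0.05 ± 0.05 and 0.02 ± 0.05 (SD, n = 3 each), and at 1000 nM the medians were 0.06 and 0.07.

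With both DMSO libraries, the difference between the subunits was small against the spread between libraries. Large minus small was 0.01 ± 0.02 for pyraclostrobin and -0.01 ± 0.03 for trifloxystrobin (SD, n = 4 each), 0.03 ± 0.04 for picoxystrobin at 30 to 300 nM (SD, n = 3) and 0.02 for azoxystrobin. Over single libraries it lay between -0.03 at trifloxystrobin 100 nM and 0.07 at picoxystrobin 100 nM. Without the second DMSO library, large minus small was 0.04 ± 0.02 for pyraclostrobin and -0.02 ± 0.03 for trifloxystrobin (SD, n = 4 each). Without the first, it was -0.01 ± 0.01 and -0.02 ± 0.02. Its size and sign for pyraclostrobin thus depend on the DMSO library used. These medians describe the list and were not tested. In pyraclostrobin libraries the change of a gene from DMSO correlated with transcript length over all genes (r from -0.23 at 30 and 100 nM to -0.12 at 1000 nM, across genes, which are not independent replicates), and the members were shorter, with a median of 1884 bases against 3112. With an offset for GC content and length, the pyraclostrobin mean fell to 0.10 ± 0.03 for the large and 0.09 ± 0.01 for the small subunit (SD, n = 4 each). At azoxystrobin 1000 nM the correlation with length was r = -0.29 over all genes. With the offset its medians fell to 0.08 for the large and 0.07 for the small subunit.

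**Figure D1:**
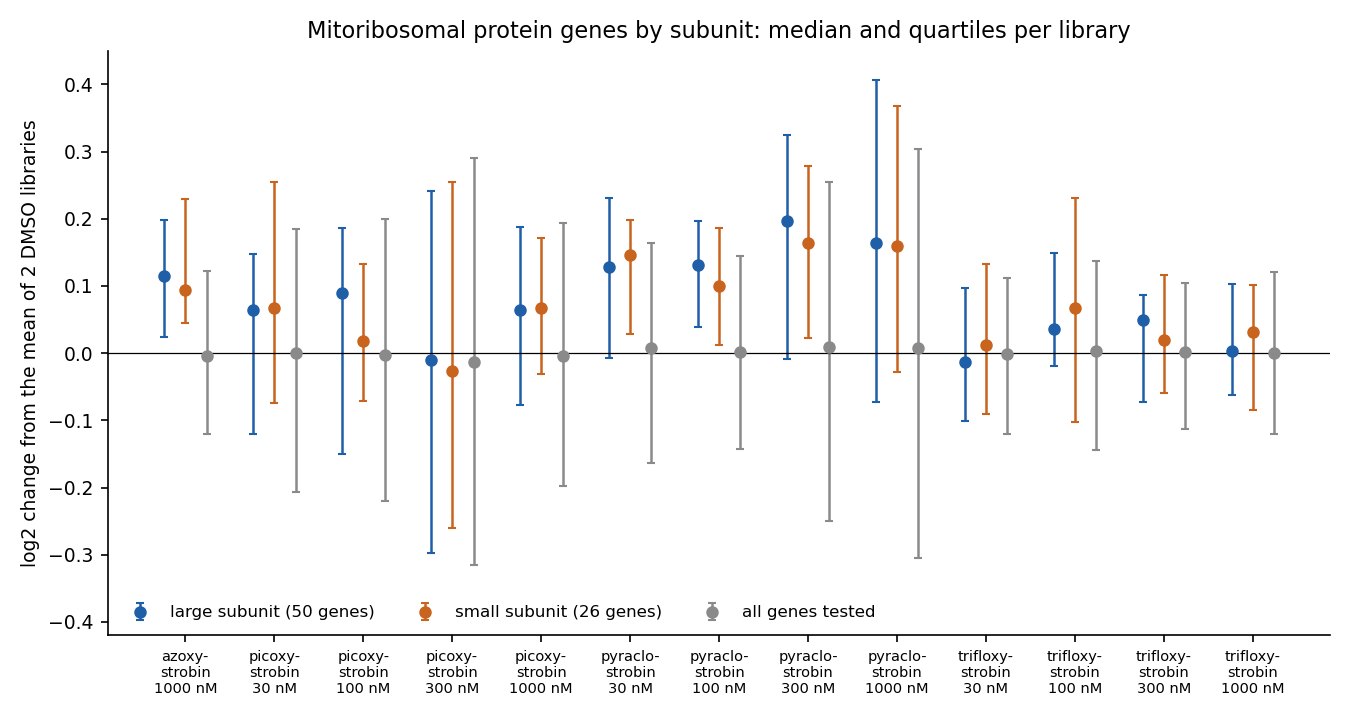
Median log2 change from the mean of 2 DMSO libraries (points) with the lower and upper quartile over genes (bars), for the large subunit, the small subunit and all genes, in each of the 13 exposed libraries. At pyraclostrobin, the medians of both subunits lie between 0.10 and 0.20 at all 4 concentrations, while those of trifloxystrobin lie between -0.01 and 0.07.

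At pyraclostrobin 300 and 1000 nM the share of members called in all was close to that of all genes. By direction, a larger share of members than of all genes rose and a smaller share fell, which was not tested. Against DMSO, 24 of the 77 genes rose and 7 fell (40.3% in all) in edgeR's quasi-likelihood test at an adjusted p under 0.05, against 18.9% of all genes tested that rose and 19.1% that fell (38.0% in all). The large subunit had 16 rises and 5 falls among 50 genes, and the small subunit had 8 rises and 2 falls among 26. The class with a bacterial homologue (46 genes) had 20 calls and the class specific to mitochondria (30 genes) had 11. The median log2 change was 0.16 over the members and 0.01 over all genes.

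Of the 5 largest rises, 4 were of the large subunit, and the other, Mrps18c, is described below with its paralogs. Mrpl33, the homologue of bacterial bL33, had 49.9 and 57 CPM in DMSO and 85.8 and 105.5 CPM at 300 and 1000 nM, a log2 change of 0.84 ± 0.14 (SE, adjusted p = 0.000294). Both high libraries lay above both DMSO libraries. Mrpl42, specific to mitochondria, went from 73.3 and 79.4 to 114 and 126 CPM, a change of 0.65 ± 0.09 (adjusted p = 0.000105). Mrpl35, the homologue of bL35, went from 41.8 and 44.8 to 65.0 and 66.7 CPM, a change of 0.60 ± 0.09 (adjusted p = 0.000148). Mrpl18 sits in the central protuberance, the crown of the large subunit. It went from 36.7 and 37.0 to 53.3 and 60.3 CPM, a change of 0.62 ± 0.11 (adjusted p = 0.000496). For all of these genes the groups did not overlap. Mrpl13, Mrpl19, Mrpl16, Mrpl49 and Mrpl27 rose by 0.45 to 0.51, and Mrpl46 by 0.48.

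In the small subunit, Mrps14 (uS14m, in the head) had 52 and 52 CPM in DMSO and 65.8 and 68.3 CPM at the high concentrations, a change of 0.37 ± 0.09 (adjusted p = 0.00365). Mrps25, Mrps31, Mrps21, Mrps9, Mrps6 and Mrps7 rose by 0.23 to 0.39. Mrps25, a protein specific to mitochondria, had 16.7 and 12.6 CPM in DMSO and 18.2 and 20.2 CPM at the high concentrations.

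The genes that fell were Mrpl23, Mrps18b, Mrpl38, Mrpl4, Mrpl17, Mrps10 and Mrpl43. Mrpl38, also of the central protuberance, had 64.2 and 55.7 CPM in DMSO and 44.6 and 36.6 CPM at the high concentrations, a change of -0.56 ± 0.13 (adjusted p = 0.00419). Mrpl17, the homologue of the tunnel protein bL17, had 136 and 141 CPM in DMSO and 114 and 104 CPM there, a change of -0.35 ± 0.07 (adjusted p = 0.00213). Mrpl4 and Mrpl23, 2 further proteins of the tunnel region in bacteria, changed by -0.35 ± 0.13 and -0.89 ± 0.33. The latter rests on 1.07 to 2.79 CPM and is not called by DESeq2. Most reads on Mrpl23 and Mrpl23-ps1 together fell on the row Mrpl23-ps1, which moved the other way. It held 52.2 and 50.1 CPM in DMSO and 62.9 and 61.8 CPM at the high concentrations. The sum of both rows was also higher at both high concentrations than in either DMSO library. The fall of Mrpl23 therefore does not hold for both rows together, and a test of their sum is not given here.

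Several genes with well known roles did not pass the threshold. The proteins of the stalk that binds translation factors, Mrpl10, Mrpl11 and Mrpl12, changed by 0.15, 0.16 and 0.04 (95% intervals -0.10 to 0.39, -0.04 to 0.35 and -0.19 to 0.26), none of them past the threshold. The decoding protein Mrps12, the hydrolase Mrpl58 and Mrps30 changed by -0.14, 0.13 and 0.01, also not past it. Mrpl45, which joins the tunnel exit to the inner membrane, rose by 0.28 ± 0.10 (adjusted p = 0.0374), from 56.5 and 51.3 to 66.2 and 64.3 CPM.

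Without the first DMSO library 15 of the 77 genes were called and without the second 20. Without pyraclostrobin at 1000 nM 14 were called, and DESeq2 called 19. The 10 calls of the small subunit fell to 5 and 3 without the first or the second DMSO library, to 2 without pyraclostrobin at 1000 nM, to 3 in DESeq2 and to 4 with the offset for GC content and length, where the large subunit had 10, 17, 12, 16 and 18 calls. In all 4 fits that left out a library and in all 7 other settings, 9 genes were called, namely Mrpl13, Mrpl16, Mrpl18, Mrpl19, Mrpl33, Mrpl35, Mrpl42 and Mrpl49, which rose, and Mrpl17, which fell. All 9 are of the large subunit, which holds 50 of the 77 genes, and the difference between the subunits was not tested. The share of all genes that were called in all of these fits is not given here, so this count has no background. The summed neuron markers had 14.8 to 15.7 CPM in DMSO and 22.9 to 24.2 CPM at 300 and 1000 nM, through 1 of the 3, Tubb3. This was not particular to high pyraclostrobin, since the sum was 31.6 CPM at picoxystrobin 1000 nM and 14.4 to 24.5 CPM with trifloxystrobin. Rbfox3 stayed at 0 and Snap25 was at most 0.554 CPM in any library. Of the progenitor markers, only Nes was higher, with 149.8 to 154 CPM in DMSO and 199.9 to 204 CPM at pyraclostrobin 300 and 1000 nM. Vim, Sox2 and Msi1 had 2931 to 2987, 38.7 to 44.6 and 6.67 to 7.02 CPM in DMSO. At these high concentrations they had 2521 to 2611, 37.1 to 37.3 and 5.61 to 6.39 CPM. The summed progenitor markers went from 3132 to 3186 CPM in DMSO to between 2764 and 2859 CPM. The part of these markers in the result was not tested.

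Between 30 and 100 nM and 300 and 1000 nM of pyraclostrobin, a smaller share of members than of all genes was called. This comparison uses no DMSO library. 11 of the 77 genes (14.3%) were called, 8 higher at the high concentrations (9.87% of all genes) and 3 lower (9.24%, 19.1% in all). All 11 belong to the 50 genes of the large subunit, a share close to the 19.1% of all genes. They are also all among the 31 called against DMSO, with which they share the high libraries. None of the 26 genes of the small subunit was called by edgeR or by DESeq2 or in any other setting, and none reached an unadjusted p under 0.05, with a smallest adjusted p of 0.154. The difference in these counts between the subunits was not tested. The share of all genes with such an unadjusted p is not given here. The medians of both subunits were close, at 0.05 for the large and 0.04 for the small.

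Mrpl33 had 68.1 and 58.9 CPM at the low concentrations and 85.8 and 105.5 CPM at the high, a change of 0.59 ± 0.14 (adjusted p = 0.00765). Mrpl18 rose by 0.41 ± 0.11 and Mrpl49, which is specific to mitochondria, by 0.41 ± 0.10. Mrpl16, whose bacterial homologue lies near the site of the incoming tRNA, went from 40.2 and 35.6 to 49.9 and 49.3 CPM, a change of 0.38 ± 0.09 (adjusted p = 0.00756). Mrpl35 rose by 0.37 ± 0.09, and Mrpl42, Mrpl19 and Mrpl13 rose by 0.34 to 0.36.

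Of the genes that fell, Mrpl38 had 54.9 and 67.5 CPM at the low concentrations and 44.6 and 36.6 CPM at the high, a change of -0.59 ± 0.14 (adjusted p = 0.00715). Mrpl17 fell from 133 and 141 to 114 and 104 CPM and Mrpl43 from 61.2 and 65.8 to 53.9 and 50.8 CPM. Their changes were -0.33 ± 0.08 and -0.28 ± 0.08. For all 11 genes the low and the high libraries did not overlap. Mrpl43 overlaps Twnk on the other strand, the gene of the mitochondrial helicase, which had 26.7 and 26.5 CPM at the low and 22.4 and 19.6 CPM at the high concentrations (adjusted p = 0.0507). Whether the authors' counting used the strand is not given in the sources used here.

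With 2 libraries on each side, these calls rest on single libraries. Without 1000 nM no member was called and without 100 nM only Mrpl35 and Mrpl49 were, whereas 7 and 10 were called without 30 or 300 nM.

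**Figure D2:**
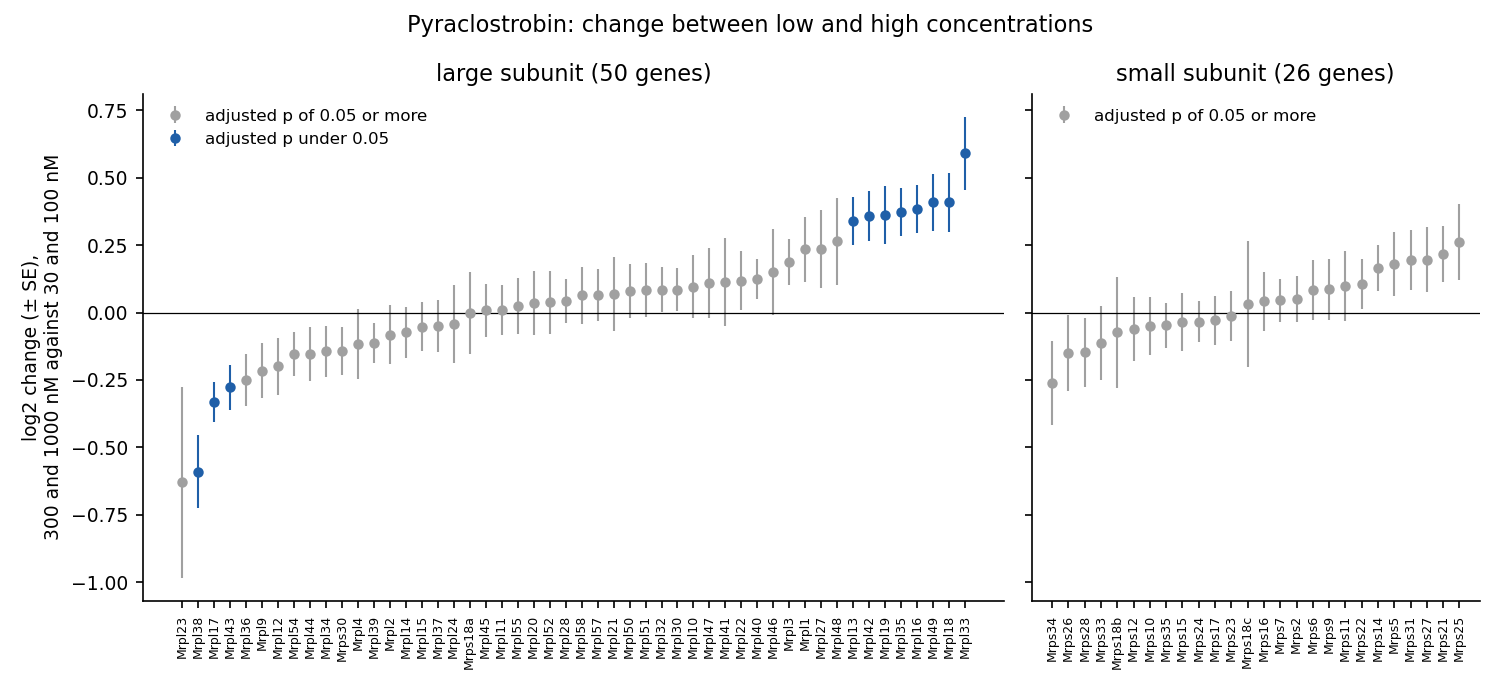
Log2 change of each member between 30 and 100 nM and 300 and 1000 nM of pyraclostrobin (points) with its standard error (bars), ordered by size within the large subunit (50 genes) and the small subunit (26 genes). The 11 coloured points, with an adjusted p under 0.05, are all in the large subunit, 8 above and 3 below zero.

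The start regions of genes of this comparison show what the reference holds just upstream of them. Of the 11 genes, 8 had a start region in the RefSeq table of build GRCm38.p6, and 5 of these had no more than 30 bases of annotated exon in the 150 bases before the start. Those 5 are printed, 5′ to 3′ on the strand of the gene. They are Mrpl33 (chr5:31613801-31613950, plus strand), Mrpl16 (chr19:11770265-11770414, plus strand), Mrpl35 (chr6:71823785-71823934, minus strand) and Mrpl42 (chr10:95501950-95502099, minus strand), which rose, and Mrpl17 (chr7:105811088-105811237, minus strand), which fell. Capitals mark a match of the ETS motif CCGGAA or of the NRF1 motif GCGCATGCG, searched on both strands.
Mrpl33: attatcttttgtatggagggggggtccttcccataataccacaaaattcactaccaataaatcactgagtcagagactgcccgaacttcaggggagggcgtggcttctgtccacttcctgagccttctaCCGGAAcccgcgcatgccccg
Mrpl16: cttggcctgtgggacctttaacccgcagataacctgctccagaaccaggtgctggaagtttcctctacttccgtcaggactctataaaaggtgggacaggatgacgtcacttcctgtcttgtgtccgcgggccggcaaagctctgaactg
Mrpl35: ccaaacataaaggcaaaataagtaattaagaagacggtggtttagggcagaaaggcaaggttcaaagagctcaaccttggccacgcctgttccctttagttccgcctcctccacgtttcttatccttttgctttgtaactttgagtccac
Mrpl42: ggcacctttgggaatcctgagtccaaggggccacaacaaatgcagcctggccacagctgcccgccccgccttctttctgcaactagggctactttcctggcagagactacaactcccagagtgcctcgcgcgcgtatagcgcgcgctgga
Mrpl17: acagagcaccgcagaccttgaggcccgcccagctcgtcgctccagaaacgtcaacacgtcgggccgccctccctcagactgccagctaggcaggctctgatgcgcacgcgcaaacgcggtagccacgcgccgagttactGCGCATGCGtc

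ETS factors and NRF1 are known as activators of many nuclear genes of mitochondrial proteins. In windows of 250 bases before and 50 after the start, CCGGAA was found for 39 of the 68 members with a window (57.4%), against 32.5% of the tested genes with a window and 16.7% of all genes with one. The share was 59.1% for the large and 56.5% for the small subunit. GCGCATGCG was found for 7 members (10.3%) and the YY1 motif AAGATGGCG for 8 (11.8%), against 4.29% and 3.76% of the tested genes. Among the members that rose at 300 and 1000 nM against DMSO, 12 of 22 with a window held CCGGAA, and among those that fell, 3 of 5. Mrpl33 has a match at position -21 from its start and one at -3 that runs past the start. Mrpl17 has the NRF1 match at position -11. Mrpl35 and Mrpl42 have the YY1 motif after the start, outside the printed bases, and Mrpl16 has no match of the 3 motifs in its window. A match describes the sequence and is not a measured site.

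Of the members, 25 have a gene on the other strand that starts within 500 bases of them. 1 such pair holds both subunits, Mrpl46 of the large and Mrps11 of the small, whose starts on chr7 lie 412 bases apart and so that their first parts overlap on opposite strands. At pyraclostrobin 300 and 1000 nM Mrpl46 rose by 0.48 ± 0.16 (SE, adjusted p = 0.0269), from 5.04 and 4.76 CPM to 6.19 and 7.48 CPM. Mrps11 had 27.8 and 25.7 CPM in DMSO and 27.7 and 27.0 CPM there, a change of 0.03 with a 95% interval of -0.24 to 0.30. The difference between both genes was not tested.

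Over all 4 concentrations of pyraclostrobin, 5 members were called against DMSO and all 5 were higher, against 3.35% of all genes that were higher and 5.25% that were lower (8.6% in all). They were Mrps18c of the small subunit and Mrpl42, Mrpl35, Mrpl51 and Mrpl30 of the large. Mrpl42 had 97.5, 89.5, 114 and 126 CPM at 30 to 1000 nM against 73.3 and 79.4 CPM in DMSO, a change of 0.48 ± 0.12 (SE, adjusted p = 0.0263). Mrpl35 had 49.9, 51.9, 65.0 and 66.7 CPM (0.43 ± 0.12, adjusted p = 0.0372). Mrpl51 had 45.9, 45.2, 45.7 and 50.8 CPM against 37.0 and 38.9 CPM in DMSO (0.31 ± 0.09, adjusted p = 0.0472). Mrpl30 had 113, 113, 122 and 118 CPM against 97.1 and 97.5 CPM (0.26 ± 0.08, adjusted p = 0.0492). In each case all 4 exposed libraries lay above both controls.

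That order of libraries was common in the list: 35 of the 77 genes lay above both controls in all 4 libraries and 4 lay below, against 18.0% and 18.8% of all genes. The share was 22 of 50 for the large and 13 of 26 for the small subunit. Most of these differences did not pass the adjusted threshold. Without either DMSO library no member was called, so the 5 calls depend on both. Leaving out pyraclostrobin at 300 nM also gave 0 calls and at 1000 nM 1, whereas 11 and 15 were called without 30 or 100 nM. DESeq2 called 9.

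At picoxystrobin 30 to 300 nM members were called about as often as all genes. Against DMSO, 8 of the 77 genes rose and 8 fell, against 9.13% and 10.0% of all genes (19.2% in all). The large and the small subunit had 4 rises and 4 falls each. The class with a bacterial homologue (46 genes) had 13 calls and the class specific to mitochondria (30 genes) had 3, and the difference between the classes was not tested.

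The genes that rose were Mrpl33, Mrpl47, Mrps22, Mrps31, Mrpl35, Mrpl3, Mrps14 and Mrps9. Mrpl33 had 80.0, 77.2 and 105 CPM at 30, 100 and 300 nM against 49.9 and 57 CPM in DMSO, a change of 0.71 ± 0.20 (SE, adjusted p = 0.0247), and 53.7 CPM at 1000 nM. Mrps22, a small subunit protein specific to mitochondria, had 44.6, 45.7 and 46.4 CPM against 33.3 and 33.7 CPM (0.44 ± 0.09, adjusted p = 0.00663), and 29.2 CPM at 1000 nM. At 1000 nM neither gene lay above both controls.

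The genes that fell were Mrps34, Mrpl4, Mrps12, Mrps11, Mrps15, Mrpl20, Mrpl14 and Mrpl28. Mrps34, specific to mitochondria, had 12.0, 9.2 and 8.1 CPM against 17.4 and 16.2 CPM in DMSO, a change of -0.78 ± 0.16 (adjusted p = 0.00658). Mrpl4 had 12.4, 11.8 and 9.6 CPM against 18.3 and 17.3 CPM (-0.66 ± 0.12, adjusted p = 0.00514). Mrps12, the protein of the decoding centre, had 18.6, 21.4 and 21.4 CPM against 30.4 and 26 CPM (-0.46 ± 0.11, adjusted p = 0.0128), and 29.6 CPM at 1000 nM. Without the first DMSO library no member was called and without the second 6. The number was 8 without 100 nM and 4 without 300 nM.

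These calls moved with the base composition of the transcripts. The 8 genes that rose had a GC content of 38.6% to 48.4% and the 8 that fell of 48.8% to 59.9%. Over the 77 genes the change correlated with GC content at r = -0.65, across genes. Over all genes r was -0.53, -0.60 and -0.67 at 30, 100 and 300 nM, and 0.17 at 1000 nM. With an offset for GC content and length 2 of the 77 genes were called, and Mrps22 was one of them, with a change of 0.42 and an adjusted p of 0.0231 (0.000509 to 0.311 over its alternatives). With picoxystrobin at 1000 nM pooled with the other libraries no member was called. Counts of genes whose libraries do not overlap were also near the background here, with 29 members above both controls in all 3 libraries and 21 below, against 29.6% and 30.3% of all genes.

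**Figure D3:**
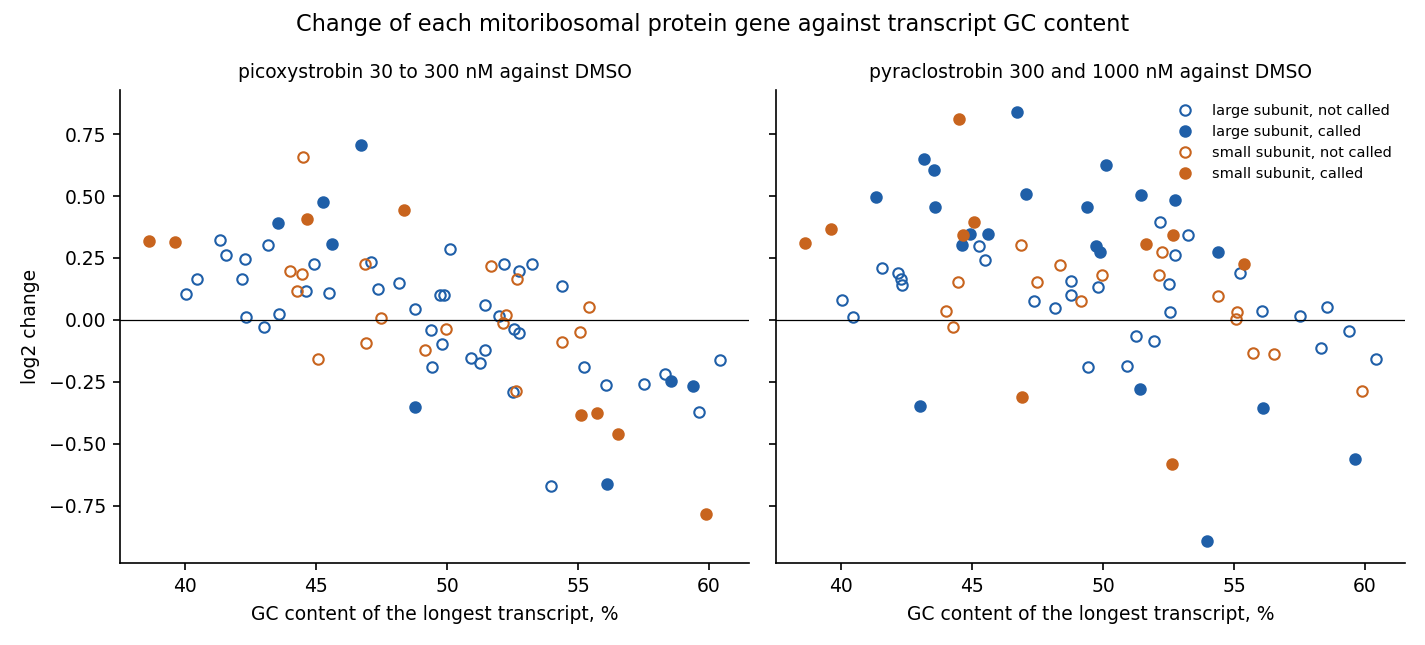
Log2 change of each member (vertical axis) against the GC content of its longest transcript in percent (horizontal axis), for picoxystrobin at 30 to 300 nM and for pyraclostrobin at 300 and 1000 nM, both against DMSO. Filled points have an adjusted p under 0.05. At picoxystrobin, the genes that rose lie between 38.6% and 48.4% and those that fell between 48.8% and 59.9%; at pyraclostrobin r was -0.40.

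Trifloxystrobin and azoxystrobin gave no call. No member was called in edgeR's test for trifloxystrobin against DMSO (0.0% of all genes), with 4 members at an unadjusted p under 0.05, and DESeq2 called none. The smallest of these p belonged to Mrps9, with 14.8 to 16.5 CPM over the 4 libraries against 13.4 and 13.3 CPM in DMSO, a log2 change of 0.26 (95% interval 0.04 to 0.48). Mrps31 changed by 0.27 and Mrpl55 by 0.19, and Mrpl20, Mrps34 and Mrps12 by -0.26, -0.33 and -0.20. Between 30 and 100 nM and 300 and 1000 nM of trifloxystrobin no member was called either (0.0% of all genes), by edgeR or DESeq2, with 1 at an unadjusted p under 0.05, Mrps23, whose change was 0.22 (95% interval 0.02 to 0.42). Mrps15 and Mrpl12 changed by 0.19 and 0.16, and Mrpl47, Mrps27 and Mrps14 by -0.27, -0.23 and -0.17. The shares of all genes with an unadjusted p under 0.05 in these trifloxystrobin comparisons are not given here, so these counts have no background.

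At azoxystrobin 1000 nM 63 of the 77 genes had a positive change, but none was called by edgeR (0.0% of all genes) or by DESeq2, and 7 had an unadjusted p under 0.05, all higher. Mrpl30 had 130 CPM against 97.1 and 97.5 CPM in DMSO (0.41, 95% interval 0.19 to 0.64) and Mrpl52 had 75.6 CPM against 53.6 and 51.1 CPM (0.53, 0.22 to 0.84). Mrps36 changed by 0.98 (0.24 to 1.71) at 3.48 CPM. Mrpl4, Mrpl20 and Mrpl46 had the smallest p among the lower genes, with changes of -0.33, -0.24 and -0.35 whose intervals include zero. With 1 library, its spread was taken from the other groups. The median change of all genes was -0.005 in this library. The shares of all genes with a positive change or with such an unadjusted p are not given here.

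The response to a higher concentration differed between pyraclostrobin and trifloxystrobin in 3 members. The change from low to high concentrations in pyraclostrobin minus that in trifloxystrobin passed the threshold for Mrpl33 (0.83 ± 0.19, SE, adjusted p = 0.0208), Mrpl49 (0.52 ± 0.15, adjusted p = 0.045) and Mrpl17 (-0.42 ± 0.11, adjusted p = 0.0264), against 7.12% of all genes. All 3 are of the large subunit. In trifloxystrobin Mrpl33 had 65.7, 66.5, 58.4 and 53.6 CPM at 30 to 1000 nM, and Mrpl17 had 137, 138, 146 and 147 CPM. Leaving out 1 of the 8 libraries gave 0 to 5 calls, with 0 without pyraclostrobin at 100 or 1000 nM or trifloxystrobin at 300 or 1000 nM, and 1 without pyraclostrobin at 30 nM or trifloxystrobin at 100 nM.

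The 3 compounds were compared at matched concentrations, with concentration as a block and p-values adjusted over all genes and the 3 pairs together. Pyraclostrobin, with its methoxycarbamate, and trifloxystrobin, with its methoxyiminoacetate, differed past the threshold in no member by edgeR, against 0.693% of all genes. 17 members had an unadjusted p under 0.05, 15 of them higher with pyraclostrobin, and DESeq2 called 2. The shares of all genes for these counts are not given here, so they have no background. The gene nearest to the threshold was Mrpl27 (bL27m), whose bacterial homologue reaches the peptidyl transferase centre. It had 12.7, 12.7, 15.4 and 14.5 CPM with pyraclostrobin and 8.5, 11, 10.9 and 9.8 CPM with trifloxystrobin, a difference of 0.46 (95% interval 0.23 to 0.69, adjusted p = 0.0519). Mrpl42 and Mrpl51 differed by 0.33 (0.13 to 0.53) and 0.30 (0.12 to 0.49), and Mrps18b by -0.41 (-0.68 to -0.14). Mrpl17 and Mrpl43 differed by -0.21 (-0.41 to -0.02) and -0.17 (-0.37 to 0.02). For genes without a difference the interval still covers changes of some size, as for Mrps30, at -0.02 (-0.19 to 0.16).

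Picoxystrobin, with its methoxyacrylate, and trifloxystrobin differed in 1 member, Mrpl4, which was lower with picoxystrobin by -0.55 (95% interval -0.80 to -0.31, adjusted p = 0.048), against 1.51% of all genes. At 30, 100 and 300 nM it had 12.4, 11.8 and 9.6 CPM with picoxystrobin and 15.9, 18.0 and 15.2 CPM with trifloxystrobin. This call was lost with the offset for GC content and length (adjusted p = 0.164, range over its alternatives 0.00532 to 0.368). Pyraclostrobin and picoxystrobin differed in no member by edgeR, against 0.843% of all genes. At an unadjusted p under 0.05 were 19 members, 18 of them higher with pyraclostrobin, and DESeq2 called 4. The shares of all genes for the counts of 19, 18 and 4 are not given here. Mrps34 differed by 0.64 (0.34 to 0.93, adjusted p = 0.0505), Mrpl20 by 0.46 (0.22 to 0.70) and Mrpl12 by 0.43 (0.19 to 0.67). Mrps22, Mrps18b and Mrps10 differed by -0.30 (-0.49 to -0.10), -0.26 (-0.56 to 0.05) and -0.19 (-0.41 to 0.03).

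The values of the 3 paralogs of bacterial bS18 are given side by side, and differences between them were not tested. In bacteria a single bS18 sits in the small subunit, whereas in mammals Mrps18c takes this place, Mrps18b lies elsewhere in the small subunit and Mrps18a lies in the large subunit. Mrps18c had 1.58 and 2.06 CPM in DMSO and 3.49, 2.70, 2.84 and 3.54 CPM at pyraclostrobin 30 to 1000 nM, above both controls in all 4 libraries, a change of 0.79 ± 0.22 (SE, adjusted p = 0.038). Mrps18b had 6.19 and 8.52 CPM in DMSO and 5.17, 5.16, 4.55 and 5.25 CPM, below both controls in all 4, a change of -0.55 ± 0.17 (adjusted p = 0.0531). At 300 and 1000 nM both passed the threshold, with changes of 0.81 ± 0.25 and -0.58 ± 0.19 (adjusted p of 0.017 and 0.0252). Mrps18a had 27.6 and 22.6 CPM in DMSO and 27.7 to 29.8 CPM with pyraclostrobin, a change of 0.19 with a 95% interval of -0.09 to 0.47. At picoxystrobin 30 to 300 nM Mrps18c had 2.58 to 3.08 CPM, a change of 0.66 ± 0.23 in edgeR's test (adjusted p = 0.0539). Mrps18b had 5.07 to 7.27 CPM there, which overlaps DMSO. At picoxystrobin 1000 nM Mrps18c and Mrps18b had 2.60 and 5.21 CPM, also above and below both controls. Both called paralogs are lowly expressed, and DESeq2 called neither at 300 and 1000 nM. Without a DMSO or a high library, adjusted p ranged up to 0.153 for Mrps18c and 0.28 for Mrps18b.

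**Figure D4:**
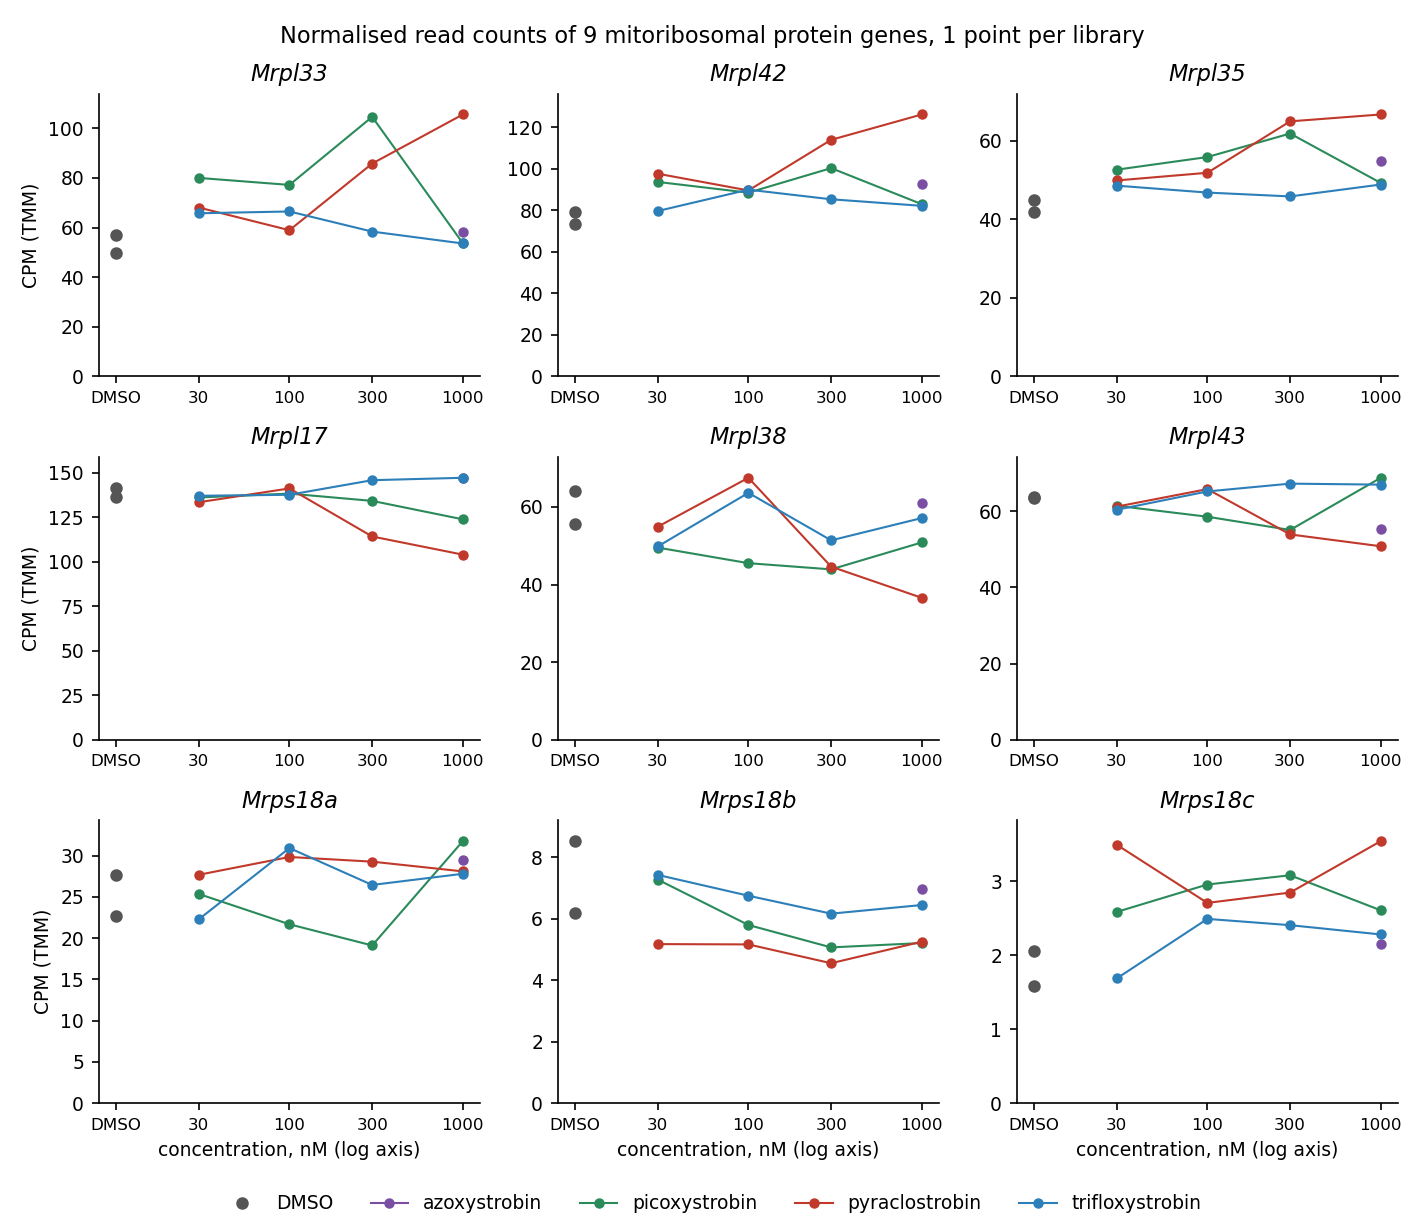
Normalised read counts in CPM (vertical axes, from zero) of 9 members at each concentration in nM (horizontal log axis, with DMSO placed to the left), 1 point per library, with lines that join the concentrations of a compound. Mrpl33, Mrpl42 and Mrpl35 are highest at 300 or 1000 nM of pyraclostrobin or, for Mrpl33, also at 300 nM of picoxystrobin (105 CPM), Mrpl17 and Mrpl38 are lowest at 1000 nM of pyraclostrobin (104 and 36.6 CPM), and Mrps18b and Mrps18c lie on opposite sides of the DMSO points with pyraclostrobin.

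Genes that work with the mitoribosome moved in both directions. From a fixed list of 53 nuclear genes for ribosomal proteins with other names, assembly and rRNA factors, translation factors and mitochondrial transcription, 50 were tested. Against DMSO, pyraclostrobin at 300 and 1000 nM was followed by 5 rises and 4 falls, a smaller share than the 38.0% of all genes called in this comparison (18.9% higher and 19.1% lower). Chchd1, a small subunit protein without an Mrps symbol, had 27.7 and 31.9 CPM in DMSO and 43.0 and 55.3 CPM there (0.72 ± 0.12, SE, adjusted p = 0.000432). Mettl15, which methylates the rRNA of the small subunit, rose by 0.67 ± 0.13, and Mtif2, the initiation factor, by 0.42 ± 0.11. Malsu1, an assembly factor of the large subunit, and Tfam, which packs mitochondrial DNA and helps to start its transcription, rose by 0.32 and 0.27. The mitochondrial RNA polymerase Polrmt fell by 0.68, Mettl17 by 0.72, Gfm2, a recycling factor, by 0.47 and Twnk by 0.34.

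From low to high pyraclostrobin, 2 of the 50 rose (Chchd1 and Mettl15) and 4 fell, against 9.87% and 9.24% of all genes. Tfb2m, the initiation factor of mitochondrial transcription, went from 8.0 and 7.9 to 4.8 and 4.8 CPM (-0.72 ± 0.16, adjusted p = 0.00634). Tfb1m, which methylates the small subunit rRNA, fell by 0.61, and Aurkaip1, a small subunit protein, by 0.31. Gfm2 fell by 0.30. Over all concentrations of pyraclostrobin only Polrmt was called, and it fell by 0.60. At picoxystrobin 30 to 300 nM Mterf2, Tfam and Fastkd2 rose and Polrmt, Rpusd3 and Gadd45gip1 fell, and none of the 50 was called for trifloxystrobin or azoxystrobin against DMSO or between compounds at matched concentrations. In the difference between pyraclostrobin and trifloxystrobin in the change from low to high concentrations, Tfb2m and Aurkaip1 were lower, by -0.84 ± 0.23 and -0.42 ± 0.11 (SE, adjusted p of 0.0351 and 0.038).

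The rRNAs of the mitoribosome, transcribed from mitochondrial DNA, were higher at high pyraclostrobin. That of the small subunit, mt-Rnr1, had 2048 and 2969 CPM in DMSO, 2482 and 2059 CPM at 30 and 100 nM and 6756 and 9715 CPM at 300 and 1000 nM. That of the large subunit, mt-Rnr2, had 4014 and 4388 CPM in DMSO, 4867 and 3667 CPM at the low and 6002 and 7853 CPM at the high concentrations. From low to high concentrations the changes were 1.86 ± 0.25 for mt-Rnr1 and 0.70 ± 0.20 for mt-Rnr2 (SE, adjusted p of 0.000231 and 0.0229). The difference between both was not tested, and the call of mt-Rnr2 was lost in DESeq2, in a robust fit and in a linear trend on concentration. Picoxystrobin at 1000 nM had 4587 CPM of mt-Rnr1 and 3389 CPM of mt-Rnr2. Level and change of an rRNA depend on how much of it the library preparation kept.

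**Figure D5:**
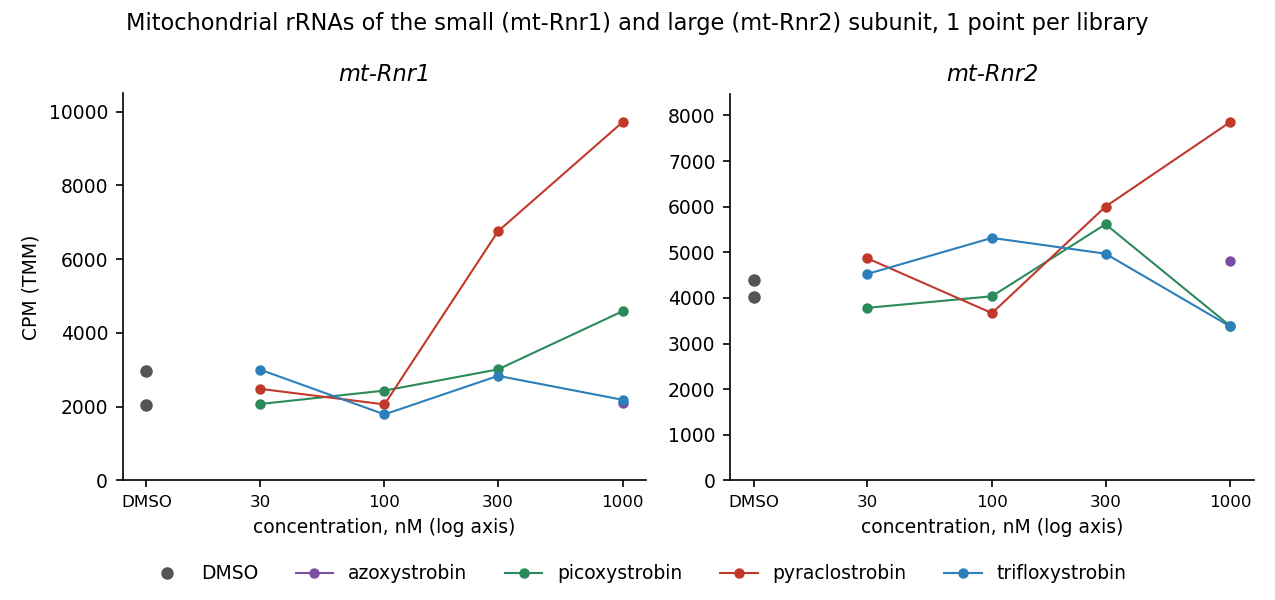
Normalised read counts in CPM (vertical axes, from zero) of the mitochondrial rRNAs of the small subunit (mt-Rnr1) and of the large subunit (mt-Rnr2) at each concentration in nM (horizontal log axis, with DMSO placed to the left), 1 point per library. At pyraclostrobin 300 and 1000 nM mt-Rnr1 reached 6756 and 9715 CPM, above all other libraries.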

How the data were processed

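RNA of C17.2α cells was sequenced on a NextSeq500 from Lexogen total RNA SENSE libraries. The authors deposited 1 table of raw read counts per gene and sample, made with htseq-count. The submitters' processing notes name Bowtie2 2.3.2.2 and the build mm10, and the annotation and the strand setting are not given in the sources used here. Library totals were 12292390 to 18188099 counts with a median of 16180381. These limit the precision of lowly expressed genes.

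Members, lists, tests and rules were chosen with earlier results of these data known. Genes with a mean of at least 1 CPM over 15 libraries were fitted with edgeR 4.0.16 in R 4.3.3 (quasi-likelihood, TMM normalisation, prior count 2 for printed log2 changes), and a gene was called at a Benjamini-Hochberg adjusted p under 0.05 over all genes tested. Comparisons with DMSO shared 1 fit of all groups. The concentrations of pyraclostrobin and trifloxystrobin were divided into low (30 and 100 nM) and high (300 and 1000 nM) in another fit. Pairs of compounds were compared with concentration as a block, at 30 to 300 nM for pairs with picoxystrobin, and p-values were adjusted over genes and 3 pairs. Subunits followed the place of the protein in the mitoribosome. CPM values use the TMM factors. The rule for named genes took up to 5 rises and 5 falls of largest log2 change among called members whose libraries did not overlap or, where none was called, up to 3 in each direction of smallest unadjusted p, the 3 highest and 3 lowest levels per kb, genes with a fixed role and the paralogs of bS18. The other genes named, such as further called members and the pair Mrpl46 and Mrps11, were chosen after their values were seen. GC content and length are of the longest GENCODE transcript, and start regions are from RefSeq (GRCm38.p6). The fits were tested on simulated data. Alternatives were DESeq2 1.42.0, other size factors and filters, a robust fit, an offset for GC content and length, picoxystrobin 1000 nM pooled, and each library left out. The levels of oligodendrocyte markers are not reported here.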

Additional observations from a re-analysis of the deposited data

Results flagged for a closer look

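Among groups of 4 libraries, 12 of 195 held a library far from the other 3 by Dixon's test, and chance gives about 1 in 20. For trifloxystrobin, Chchd1 was at 30.8 CPM at 1000 nM against 35.4 to 36.2 in the others, Mrpl10 at 67.7 CPM at 1000 nM against 60.9 to 62.0, and Mrps9 at 14.8 CPM at 30 nM against 16.3 to 16.5. The median of the large minus that of the small subunit was 0.0292 at 300 nM and between -0.0311 and -0.0250 in the others. For pyraclostrobin, Mrpl10 was at 77.2 CPM at 300 nM against 67.7 to 68.1, Mrps18b at 4.55 CPM at 300 nM against 5.16 to 5.25, and Mrps36 at 2.21 CPM at 100 nM against 1.26 to 1.33. At 1000 nM of pyraclostrobin Mrpl14 was at 87.6 CPM against 98.4 to 100.2, and Mrpl51 at 50.8 CPM against 45.2 to 45.9. At picoxystrobin 1000 nM, the library that stood apart, Gadd45gip1 was at 19.1 CPM against 10.1 to 10.8, Mrps22 at 29.2 CPM against 44.6 to 46.4, and Mterf2 at 14.3 CPM against 24.3 to 25.8.

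In 3 of the 77 members the change from low to high concentrations differed between pyraclostrobin and trifloxystrobin in edgeR's test of the difference. This was a smaller share than the 7.12% of all genes called in this comparison. The log2 differences were 0.83 for Mrpl33, 0.52 for Mrpl49 and -0.42 for Mrpl17.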

How the results depend on the processing

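For single genes, 1128 values were computed under other settings, of which 868 kept their direction and side of the threshold, 229 lost their call, 31 gained one and 0 turned direction. Counts of members called moved by over 1.5 times as follows, and the causes were not tested. Pyraclostrobin against DMSO (5) gave 9 in DESeq2, 3 with the offset for GC content and length and 8 with azoxystrobin 100 nM kept. Picoxystrobin against DMSO (16) gave 2 with that offset and 0 with 1000 nM pooled. Pyraclostrobin 300 and 1000 nM against DMSO (31) gave 19 in DESeq2, and high against low (11) gave 7 for a linear trend on log10 concentration. For the pairs pyraclostrobin to trifloxystrobin (0), picoxystrobin to trifloxystrobin (1) and pyraclostrobin to picoxystrobin (0), DESeq2 gave 2, 4 and 4, a mean CPM over 10 gave 1, 2 and 2, no filter gave 5, 5 and 5, a robust fit gave 1, 2 and 2, and no concentration block gave 4, 4 and 10. For picoxystrobin to trifloxystrobin the offset and the pooled 1000 nM library gave 0 each. With subunits by symbol alone, large minus small was -0.0204 for azoxystrobin, against 0.0196 by the place of the protein. In the same order it was -0.0261 against -0.0137 for trifloxystrobin and 0.0173 against 0.0129 for pyraclostrobin. It was 0.0358 against 0.0188 at pyraclostrobin 300 and 1000 nM. For picoxystrobin it was 0.0366 against 0.0283 at 30 to 300 nM and -0.0326 against -0.0029 at 1000 nM.

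With 1 library left out, the count ranged from 0 to 14 for picoxystrobin, 0 to 15 for pyraclostrobin, 0 to 0 for trifloxystrobin and azoxystrobin, 14 to 23 for pyraclostrobin 300 and 1000 nM against DMSO, 0 to 10 for high against low in pyraclostrobin, 0 to 0 in trifloxystrobin and 0 to 5 for their difference. The pairs, in the order above, gave 0 to 8, 0 to 9 and 0 to 3. The highest values came without trifloxystrobin 100 nM (8 and 9) and without pyraclostrobin 100 nM (3). Large minus small ranged from -0.0090 to 0.0436 for picoxystrobin, from -0.0132 to 0.0414 for pyraclostrobin, from -0.0118 to 0.0431 for its high concentrations, from -0.03 to -0.01 for trifloxystrobin and from 0.0009 to 0.03 for azoxystrobin. Where 1 library was left in a group, its spread was taken from the other groups. No paired analysis was possible because DMSO and the compounds share no replicate numbers in the labels, and concentration was the block between compounds. Counts of lowly expressed genes such as Mrps18c and Mrpl23 limit what could be detected.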
